A study of Mus musculus with 2 samples.

Results

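The genes described here are 10 enzymes that build, desaturate and lengthen fatty acids: Acly, Acaca and Fasn for synthesis, Scd1, Scd2, Fads1 and Fads2 for desaturation, and Elovl1, Elovl5 and Elovl6 for elongation. They were chosen by symbol for their role, and all 10 of 10 were found among the 22096 gene symbols of the deposited tables, each on 1 entry. Their RNA was measured by sequencing in sciatic nerve of mice of mixed strain at postnatal day 7, in 1 library from Tsc1cKO nerve and 1 from control nerve. Tsc1 encodes part of the TSC complex, the main inhibitor of the growth kinase mTORC1. The names under which the tables were deposited read as both conditional alleles of Tsc1 (c/c) with Dhhcre for Tsc1cKO and as a conditional allele beside a wild-type allele (c/plus) with Dhhcre for control. On that reading the control animals carried the Cre driver too and may have lost a copy of Tsc1 in the same cells, so that each difference sets loss of both copies against loss of a single copy. Dhhcre is taken here as Cre under the desert hedgehog regulatory sequences, which are active in the Schwann cell lineage, whereas the RNA came from the whole nerve with its fibroblasts, vessels, fat and immune cells. The number of animals behind a library is not given in the sources used here.

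Fatty acid synthesis starts in the cytosol with acetyl-CoA made from citrate, which is carboxylated to malonyl-CoA and assembled into palmitate. Desaturases then place double bonds and elongases of the endoplasmic reticulum add carbons, which gives the long and very long chains that Schwann cells put into myelin. Transcription of most of these enzymes is driven by the SREBP factors, which are released from the endoplasmic reticulum when sterols are low and whose activity mTORC1 is known to promote.

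In Tsc1cKO nerve 9 of the 10 genes were lower than in control nerve and Elovl5 was slightly higher. Between them the 10 genes held 982 FPKM (fragments corrected for transcript length and for the size of the library, so that levels can be compared between genes) in Tsc1cKO nerve and 2304 FPKM in control nerve, 2.35-fold lower in Tsc1cKO. As a share of all FPKM this was 0.202% in Tsc1cKO nerve and 0.553% in control nerve. Scd2 alone held 53.4% of the sum of the 10 genes in Tsc1cKO nerve and 53.3% in control nerve. With 1 library per group there was no replicate check and no test, so every difference below is one between 2 libraries. A gene is counted below when its difference in log2(FPKM + 1), taken as Tsc1cKO minus control, reached 1 in size, which is 2-fold.

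By that rule 7 of the 10 genes were at least 2-fold lower in Tsc1cKO nerve, against 3.06% of the 12409 genes that reached 1 FPKM in 1 library or both (measured genes), and none was 2-fold higher, against 5.03%. The median difference of the 10 genes was -1.17, and that of all measured genes was 0.20. All 10 genes reached 1 FPKM in both libraries, so none was counted through a single library. They were well expressed, and of the 4050 genes reaching 20 FPKM in either library, a level chosen after the values were seen, 5.11% were 2-fold lower as deposited and 7.6% after the centring described next.

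Most genes of the Tsc1cKO library stood slightly above control. Dividing the Tsc1cKO values by 1.18, which sets to 0 the median log2 ratio over 7844 genes that reached 5 FPKM in each library, removed a shift of 0.24, and differences after this step are called centred. Of the genes past 2-fold, 62.2% were higher in Tsc1cKO as deposited and 38.1% when centred. When centred, 9 of the 10 enzyme genes were at least 2-fold lower, against 4.69% of all measured genes, and none was 2-fold higher, against 2.89%. The same 9 were lower by any amount, against 33% of all measured genes as deposited and 50.9% when centred. The centred median of the 10 was -1.41. Tsc1 itself was at 2.28 FPKM in Tsc1cKO nerve and 3.76 FPKM in control nerve, a value that also counts exons outside any deletion and cells without Cre. The FPKM of the genes used summed to 485724 in Tsc1cKO and 416707 in control, and the number of reads is unknown.

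**Figure D1:**
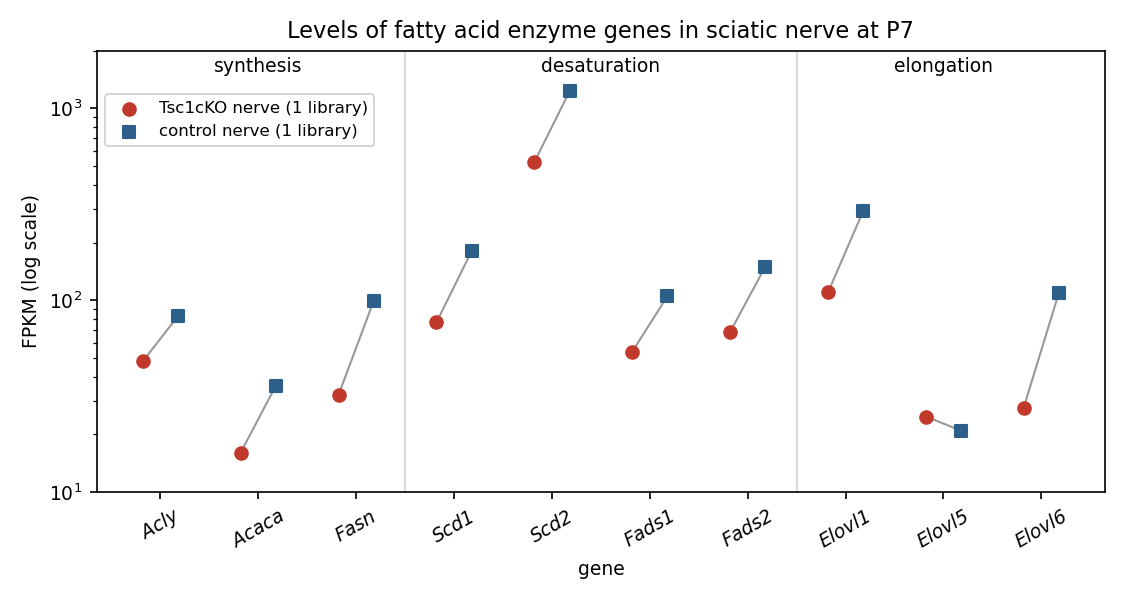
FPKM (vertical axis, log scale) of each of the 10 genes (horizontal axis, ordered by step of the pathway) in the Tsc1cKO library (circles) and the control library (squares), 1 library each, joined by a line per gene. Every line climbs toward control except that of Elovl5, which had 24.8 FPKM in Tsc1cKO nerve and 20.9 FPKM in control nerve.

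The 3 genes of the synthesis steps were all lower in Tsc1cKO nerve. Acly, which encodes ATP citrate lyase, the source of cytosolic acetyl-CoA, had 48.1 FPKM in Tsc1cKO nerve and 82.8 FPKM in control nerve, 1.72-fold lower, and its difference of -0.77 did not reach 2-fold. Acaca, encoding acetyl-CoA carboxylase alpha, which makes malonyl-CoA, had 16.1 FPKM in Tsc1cKO and 35.9 FPKM in control, 2.24-fold lower. Fasn, encoding the synthase that builds palmitate, had 32.2 FPKM in Tsc1cKO and 99.6 FPKM in control, 3.10-fold lower. Fasn thus stood above Acly in control nerve and below it in Tsc1cKO nerve, with 1.5 times as much Acly as Fasn in Tsc1cKO and 0.831 times as much in control. When centred, the differences were -1.33 for Acaca and -1.83 for Fasn, and Acly just passed 2-fold. The genes lie on chromosome 11 of the mm9 build, Acaca at 84008940 to 84215153, Acly at 100337666 to 100389314 and Fasn at 120667272 to 120685861.

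Both stearoyl-CoA desaturase genes, whose products place the bond that turns stearate into oleate, were lower to the same degree. Scd2, the main form of nerve and brain, had 525 FPKM in Tsc1cKO nerve and 1228 FPKM in control nerve, 2.34-fold lower, and was the 23rd most abundant of the measured genes in control and the 132nd in Tsc1cKO. Scd1, the form best known from liver and fat, had 76.7 FPKM in Tsc1cKO and 180.5 FPKM in control, 2.35-fold lower. The differences were -1.23 for Scd2 and -1.22 for Scd1. The level of Scd2 was 6.84 times that of Scd1 in Tsc1cKO nerve and 6.81 times in control nerve, so the balance between the paralogs was nearly the same in both libraries. Both lie on chromosome 19, Scd2 at 44368166 to 44381352 and Scd1 at 44468940 to 44482199, with 87587 bases between them. The other paralogs Scd3 and Scd4 were nearly silent, at 0.0893 and 0.106 FPKM in Tsc1cKO and 0.0630 and 0.0671 FPKM in control. Of the windows of 50 bases in the longest Scd2 transcript of GENCODE M21, 217 of 5406 also occur in transcripts of another gene, and for Scd1 the number was 223 of 4783, so most reads of that length could be told apart.

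The desaturases that make polyunsaturated fatty acids were lower as well. Fads2, which encodes the enzyme of the entry step from dietary linoleic and linolenic acid, had 68.3 FPKM in Tsc1cKO nerve and 149.8 FPKM in control nerve, 2.19-fold lower, with a difference of -1.12. Fads1, which encodes the desaturase of the later step toward arachidonic acid, had 53.9 FPKM in Tsc1cKO and 105 FPKM in control, 1.95-fold lower, and its difference of -0.95 stopped short of 2-fold. When centred both passed, at -1.35 and -1.18. Like the Scd genes they share chromosome 19, Fads2 at 10138654 to 10175993 and Fads1 at 10257378 to 10271362. Their relatives Fads3 and Fads6 had 14.8 and 1.97 FPKM in Tsc1cKO nerve and 23.3 and 5.03 FPKM in control nerve, and Fads6 passed 2-fold while Fads3 did not.

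The elongases differed from each other more than the enzymes of the other steps did. Elovl6, encoding the enzyme that lengthens palmitate to stearate, had 27.6 FPKM in Tsc1cKO nerve and 109.6 FPKM in control nerve, 3.98-fold lower (chromosome 3, 129235304 to 129341411). This was the largest difference of the 10 genes, -1.95, and 74 of the 12409 measured genes had a more negative one. Elovl1, encoding the elongase of saturated very long chains that enter sphingolipids, had 109.8 FPKM in Tsc1cKO and 292 FPKM in control, 2.66-fold lower, with a difference of -1.40 (chromosome 4, 118100698 to 118105521). Its span overlaps that of Cdc20, a mitotic gene, by 16 bases, and Cdc20 had 28.7 FPKM in Tsc1cKO and 13.8 FPKM in control, so fragments of the shared end cannot be assigned with certainty. Elovl5, encoding the elongase of polyunsaturated chains, had 24.8 FPKM in Tsc1cKO and 20.9 FPKM in control, a difference of 0.23 that was 0.01 when centred (chromosome 9, 77765172 to 77832326). Elovl5 therefore stood close to the middle of all measured genes, with 53.96% of them at a more negative difference.

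The make-up of the elongase family was thus not the same in the 2 libraries. Elovl5 held 14.3% of the FPKM of the 7 Elovl genes in Tsc1cKO nerve and 4.57% in control nerve, and Elovl6 held 15.9% in Tsc1cKO and 24.0% in control. Elovl6 was at 1.11 times the level of Elovl5 in Tsc1cKO nerve, against 5.24 times in control nerve. Elovl1 was the most abundant elongase gene in both, with 63.3% of the family in Tsc1cKO and 63.8% in control. Of the other elongase genes, Elovl7, for saturated long chains, had 8.60 FPKM in Tsc1cKO and 32.7 FPKM in control, a difference of -1.81. Elovl4, for the longest chains, had 2.49 FPKM in Tsc1cKO and 2.01 FPKM in control. Elovl2 and Elovl3 stayed under 1 FPKM in both libraries.

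**Figure D2:**
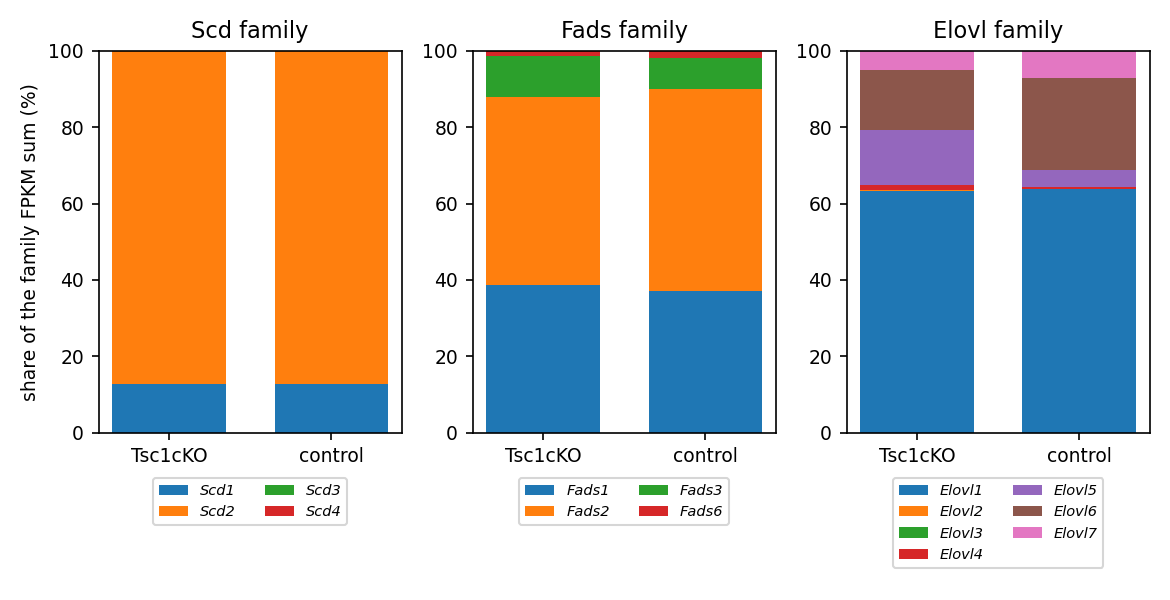
Share of the summed FPKM of each family (vertical axis, percent) held by each gene (colours) in the Tsc1cKO library (left bar) and the control library (right bar) for the Scd, Fads and Elovl families. Scd2 holds 87.2% of the Scd sum in both libraries, whereas the Elovl5 share is 14.3% in Tsc1cKO and 4.57% in control.

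The DNA before the start sites of Fasn, Elovl6 and Elovl5 is shown because Fasn and Elovl6 had the largest negative differences and Elovl5 the only positive one. These are the 250 bases before the start in RefSeq, written along the gene's strand with GRCm38.p6 coordinates, a later build than the mm9 of the deposited tables. Capitals mark the CCAAT box, searched as CCAAT on both strands, and the E-box CACGTG.
Fasn, chr11:120824548-120824797, minus strand: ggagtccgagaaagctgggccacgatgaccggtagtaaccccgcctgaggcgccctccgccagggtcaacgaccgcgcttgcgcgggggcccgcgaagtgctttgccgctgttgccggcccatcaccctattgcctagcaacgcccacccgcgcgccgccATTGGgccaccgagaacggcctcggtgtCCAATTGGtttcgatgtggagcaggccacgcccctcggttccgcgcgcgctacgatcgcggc
Elovl6, chr3:129532136-129532385, plus strand: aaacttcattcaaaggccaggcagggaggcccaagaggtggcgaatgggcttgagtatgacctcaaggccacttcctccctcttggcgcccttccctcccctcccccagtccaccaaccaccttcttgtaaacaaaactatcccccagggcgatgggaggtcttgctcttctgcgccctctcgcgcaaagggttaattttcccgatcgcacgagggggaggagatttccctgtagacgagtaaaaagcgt
Elovl5, chr9:77917115-77917364, plus strand: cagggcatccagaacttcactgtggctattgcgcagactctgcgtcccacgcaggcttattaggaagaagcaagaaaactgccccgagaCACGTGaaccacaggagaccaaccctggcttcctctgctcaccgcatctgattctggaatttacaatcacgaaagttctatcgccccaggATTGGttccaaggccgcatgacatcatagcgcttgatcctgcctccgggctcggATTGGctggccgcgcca
Of the 10 genes, 7 had an entry in the promoter table, with 8 starts, and Scd1, Scd2 and Fads1 had none. A CCAAT box, the site of the factor NF-Y that often acts beside SREBP, lay before 3 of the 8 starts, those of Fasn, Elovl5 and an Elovl1 start, and before 33.8% of all 32851 starts in the table. The E-box was found before 1 of the 8 starts, that of Elovl5, and before 6.02% of all. The core of the sterol regulatory element, searched as TCACNCCAC on both strands, was found before 0 of the 8 and before 1.05% of all starts. A site with other letters or beyond the 250 bases would be missed, so whether these genes have such an element was not tested. Of these motifs, the CCAAT box lay both before lower genes and before Elovl5. With 1 match among the 8 starts and a share of 6.02% over all starts, the E-box cannot set Elovl5 apart from the lower genes.

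**Figure D3:**
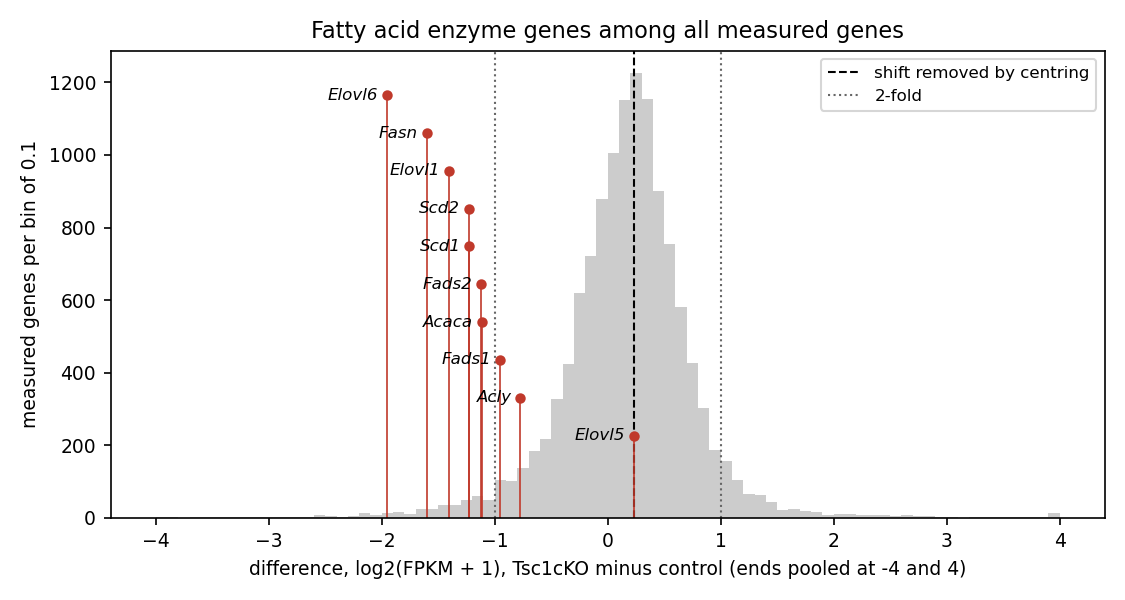
Number of measured genes (vertical axis) by difference on the log2(FPKM + 1) scale, Tsc1cKO minus control (horizontal axis, bins of 0.1), with the 10 enzyme genes drawn as labelled red stems of arbitrary height. The dashed line is the shift of 0.24 removed by centring and the dotted lines are 2-fold. Elovl6 at -1.95 lies farthest out and Elovl5 at 0.23 lies in the middle of the histogram.

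The steps around these enzymes did not all share the difference. Of 9 genes that supply acetyl-CoA and NADPH, 3 were at least 2-fold lower and none higher. Acss2, which makes acetyl-CoA from acetate, had 7.61 FPKM in Tsc1cKO nerve and 30.1 FPKM in control nerve. Me1, the malic enzyme that yields NADPH, had 6.85 FPKM in Tsc1cKO and 20.3 FPKM in control. Slc25a1, the mitochondrial exporter of the citrate that Acly splits, had 49.96 FPKM in Tsc1cKO and 124 FPKM in control. The remaining 6 were slightly higher in Tsc1cKO (3 of them when centred), among them Pgd of the pentose phosphate pathway at 78.2 FPKM in Tsc1cKO and 55.3 FPKM in control. The median of the 9 was 0.17 as deposited and -0.06 when centred.

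Of the other genes of the synthesis step, 4 of 6 were measured. Aacs, which activates acetoacetate for lipid synthesis, had 36.8 FPKM in Tsc1cKO nerve and 119.9 FPKM in control nerve, 3.25-fold lower. Mid1ip1, whose product promotes assembly of acetyl-CoA carboxylase, had 73.4 FPKM in Tsc1cKO and 127 FPKM in control. Mlycd, which breaks down malonyl-CoA, had 18.7 FPKM in Tsc1cKO and 13.3 FPKM in control. Thrsp had 4.66 FPKM in Tsc1cKO and 3.60 FPKM in control. The electron carrier genes listed beside the desaturases were within 2-fold. Cyb5r3 had 327 FPKM in Tsc1cKO and 254 FPKM in control. Cyb5, chosen after its value was seen, had 147.7 FPKM in Tsc1cKO and 178.2 FPKM in control. Cyb5b had 33.0 FPKM in Tsc1cKO and 40.4 FPKM in control.

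The enzymes that complete each round of elongation after the Elovl step were all within 2-fold, 6 of 6, with a median of -0.24 (-0.41 centred). Few genes pass that rule in any case, 3.06% of all measured genes lower and 5.03% higher. Of the 6, 4 were lower by some amount, against 33% of all measured genes (5 against 50.9% when centred). Tecr, the reductase of the last step, had 167 FPKM in Tsc1cKO nerve and 238 FPKM in control nerve. Hsd17b12, the ketoacyl-CoA reductase, had 84.3 FPKM in Tsc1cKO and 103.7 FPKM in control. Ptpla, a dehydratase gene now called Hacd1, had 37.8 FPKM in Tsc1cKO and 25.2 FPKM in control. Tecr stood at 6.06 times the level of Elovl6 in Tsc1cKO nerve and at 2.17 times in control nerve. The separate fatty acid synthesis of mitochondria was also within 2-fold in 7 of 7 genes, with a median of 0.19 (-0.02 centred). Of these 7, 2 were lower by some amount (4 when centred).

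Genes that break fatty acids down showed no such difference. None of 23 measured oxidation genes passed 2-fold in either direction, against 3.06% of all measured genes lower and 5.03% higher. Of the 23, 20 were higher by some amount in Tsc1cKO nerve against 67% of all measured genes (16 against 49.1% when centred). Their median of 0.25 was 0.03 when centred. Hadhb, of the mitochondrial trifunctional protein, had 90.9 FPKM in Tsc1cKO nerve and 55.7 FPKM in control nerve, and Acadl, a long-chain acyl-CoA dehydrogenase, had 38.4 FPKM in Tsc1cKO and 25.9 FPKM in control. Cpt1a, which admits fatty acids to mitochondria and was chosen after its value was seen, had 24.3 FPKM in Tsc1cKO and 22.4 FPKM in control. Its level was 0.756 times that of Fasn in Tsc1cKO nerve and 0.225 times in control nerve.

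**Figure D4:**
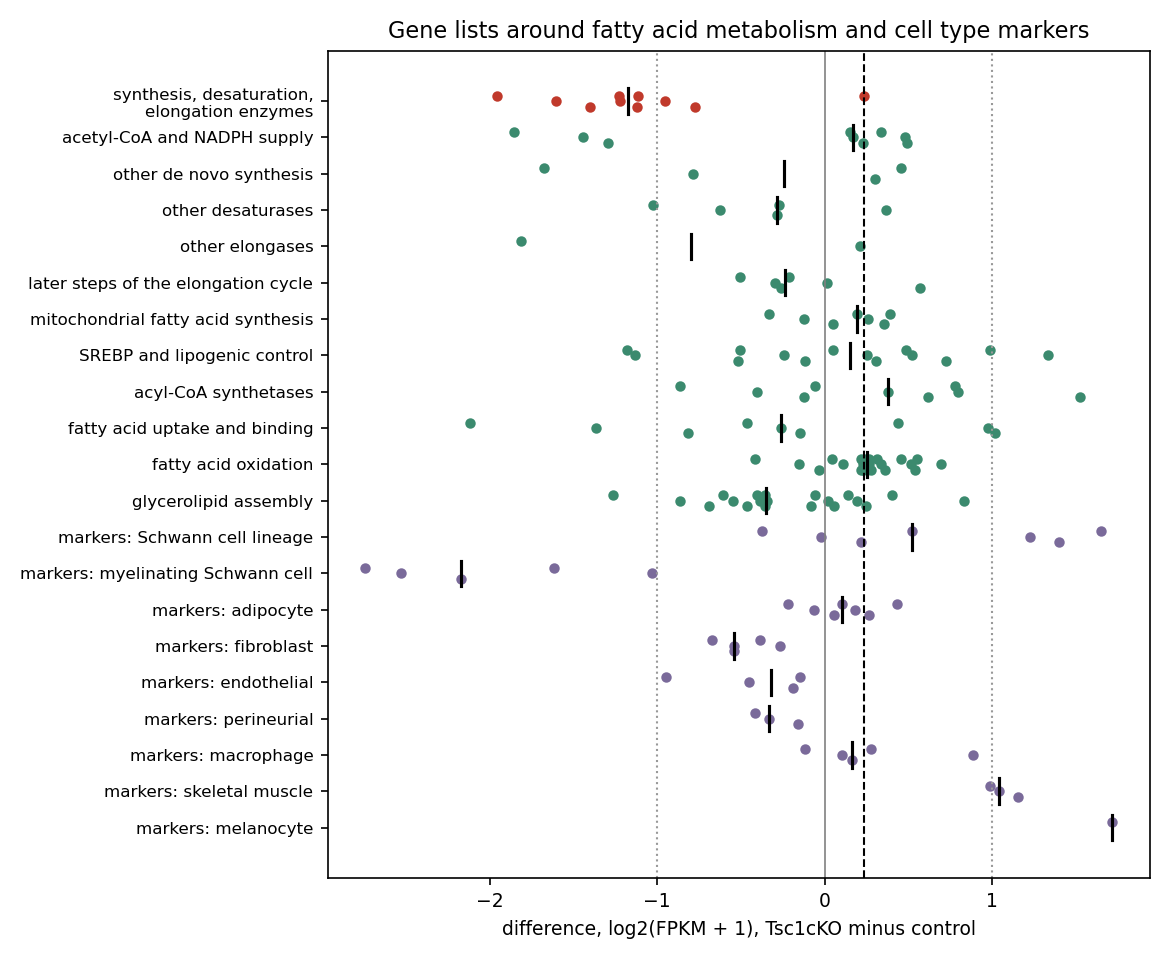
Difference on the log2(FPKM + 1) scale, Tsc1cKO minus control (horizontal axis), of each measured gene (points) in the 10 enzyme genes (top row, red), related lists (green) and cell type marker lists (purple), with the median of each row as a black bar. The dashed line is the shift of 0.24 removed by centring and the dotted lines are 2-fold. The red row and the myelinating Schwann cell row lie to the left, at medians of -1.17 and -2.17, whereas oxidation genes gather at 0.25.

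Among 14 measured genes of SREBP and lipogenic control, 2 were at least 2-fold lower and 1 higher, with a median of 0.15 (-0.07 centred). The lower ones were Insig1 and Stard4. Insig1, which holds SREBP in the endoplasmic reticulum, had 51.1 FPKM in Tsc1cKO nerve and 117 FPKM in control nerve, and Stard4, a sterol carrier, had 8.41 FPKM in Tsc1cKO and 19.7 FPKM in control. Trib1 had 6.97 FPKM in Tsc1cKO and 2.16 FPKM in control, and Lpin1, a phosphatidate phosphatase, had 10.1 FPKM in Tsc1cKO and 4.62 FPKM in control. The genes of the factors were chosen after their values were seen. Srebf1, of the form that favours fatty acid genes, had 32.7 FPKM in Tsc1cKO nerve and 26.3 FPKM in control nerve, a difference of 0.31 (0.08 centred). Its span overlaps that of Rai1 by 107 bases, so fragments there cannot be assigned with certainty. Srebf2, of the form that favours sterol genes, had 59.2 FPKM in Tsc1cKO and 84.3 FPKM in control, a difference of -0.50.

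Genes that activate, carry and use fatty acids were mixed. Of 9 measured acyl-CoA synthetase genes, 1 was 2-fold higher and none 2-fold lower as deposited, and 1 was 2-fold lower when centred. Slc27a1, a fatty acid transporter and synthetase, had 100.4 FPKM in Tsc1cKO nerve and 34.3 FPKM in control nerve, 2.93-fold higher, whereas Acsl1 had 14.1 FPKM in Tsc1cKO and 26.5 FPKM in control, a difference of -0.86 (-1.08 centred). Among genes of uptake and binding, Fabp3 was 2-fold higher, though not when centred. Pmp2, the fatty acid binding protein of peripheral myelin, had 212 FPKM in Tsc1cKO and 924 FPKM in control, 4.36-fold lower. Dbi, the acyl-CoA binding protein, had 1380.3 FPKM in Tsc1cKO and 700.3 FPKM in control, 1.97-fold higher. Of 20 genes of glycerolipid assembly, 13 were lower by some amount in Tsc1cKO nerve, against 33% of all measured genes (17 against 50.9% when centred), and 1 passed 2-fold as deposited and 2 when centred. The one that passed in both was Pcyt2, of phosphatidylethanolamine synthesis, at 47.1 FPKM in Tsc1cKO and 114.7 FPKM in control. Far1, which makes the fatty alcohols of plasmalogens, had 20.6 FPKM in Tsc1cKO and 38.2 FPKM in control and passed when centred.

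Markers of cell types differed beside these results. All 5 markers of myelinating Schwann cells with a usable value were at least 2-fold lower, at 5315 FPKM in sum in Tsc1cKO nerve and 31944 FPKM in control nerve, with Pmp22 at 2287 FPKM in Tsc1cKO and 15306 FPKM in control. Their median difference of -2.17 was larger in size than that of the enzyme genes, -1.17. The 7 markers of the Schwann cell lineage summed to 1125 FPKM in Tsc1cKO and 853 FPKM in control but did not move together. Of the 7, 3 were 2-fold higher (2 when centred) and 2 were lower by some amount (3 when centred). Gjc3, among the lower ones, had 201 FPKM in Tsc1cKO and 261 FPKM in control. In whole nerve, fewer cells of a type and less RNA per cell cannot be told apart, and the part of the myelinating cells in the lower enzyme values was not tested. Fat cells also express the synthesis enzymes and Scd1. The 8 adipocyte markers summed to 358 FPKM in Tsc1cKO and 283 FPKM in control, a sum carried by Fabp4 at 271 FPKM in Tsc1cKO and 200.4 FPKM in control. None of the 7 measured ones passed 2-fold, their median was 0.11 (-0.11 centred, with 5 of the 7 lower), and Adipoq, chosen after its value was seen, had 14.5 FPKM in Tsc1cKO and 13.4 FPKM in control. The 5 fibroblast markers summed to 4797 FPKM in Tsc1cKO and 7102 FPKM in control. All 5 were lower, with a median of -0.54 (-0.76 centred), and none passed 2-fold as deposited or centred. The same held for the 3 perineurial markers, at 96.7 FPKM in Tsc1cKO and 118.9 FPKM in control, with a median of -0.33 (-0.56 centred). The 4 endothelial markers summed to 50.4 FPKM in Tsc1cKO and 67.6 FPKM in control, with 0 of them 2-fold lower as deposited and 1 when centred. All 4 were lower by some amount, with a median of -0.32 (-0.54 centred). Of all measured genes, 33% were lower by some amount as deposited and 50.9% when centred. The 5 macrophage markers summed to 78.6 FPKM in Tsc1cKO and 67.0 FPKM in control, with a median of 0.16 (-0.05 centred, with 3 of the 5 lower). The 4 skeletal muscle markers summed to 329.8 FPKM in Tsc1cKO and 163 FPKM in control, and 2 of the 3 measured were 2-fold higher (0 when centred). Of 4 melanocyte markers Mlana and Slc45a2 were listed at 0 in both libraries, and Dct had 4.98 FPKM in Tsc1cKO and 0.818 FPKM in control. Tyr, chosen after its value was seen, went the other way at low levels, 0.168 FPKM in Tsc1cKO and 0.248 FPKM in control. The part of these cells in the enzyme values was not tested.

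**Figure D5:**
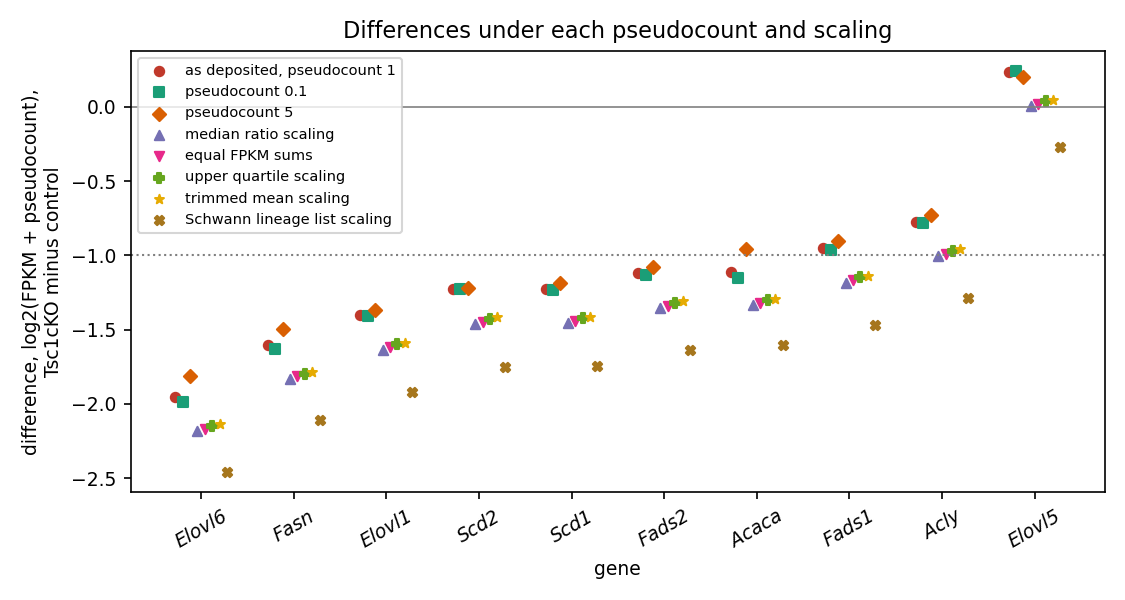
Difference of each enzyme gene (horizontal axis, ordered from the most negative) in Tsc1cKO minus control on the log2 scale (vertical axis) with values as deposited and under each other pseudocount and scaling (symbols). Of the settings shown, all leave 9 genes below 0, and Elovl5 ranges from -0.27 to 0.24.

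Over the pseudocounts and scalings tried, the differences of Elovl6 ranged from -2.46 to -1.82 and those of Fasn from -2.11 to -1.49, both beyond 2-fold throughout, as were Elovl1, Scd1, Scd2 and Fads2. Those of Acaca ranged from -1.60 to -0.96, Fads1 from -1.47 to -0.90 and Acly from -1.29 to -0.73, so these 3 crossed 2-fold with the setting. Elovl5 turned to -0.27 when the Tsc1cKO values were divided by 1.44. That factor sets the median log2 ratio of the Schwann cell lineage markers to 0. A 3-fold rule kept 2 of the 10, Elovl6 and Fasn.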

How the data were processed

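Per the labels' protocols, RNA of whole sciatic nerves was extracted with Trizol and sequenced from TruSeq RNA libraries. Per the file headers, the authors deposited an FPKM value for each gene of each library. Per the submitters' processing notes, CASAVA, TopHat, Cufflinks and the build mm9 were used, and no versions are named. The sources used here do not state the annotation, the use of strand or the number of reads. FPKM are not counts, so no count test or counting interval was computed. Each table held 22532 entries. Entries sharing a symbol were summed (227 symbols), and 3 genes without a clean estimate in the status column were left out, leaving 22093. Starts in the tables count from 0, judged by 7620 of 19417 genes whose spans then equal those in RefSeq, against 506 otherwise, and are printed counting from 1. Differences used a pseudocount of 1, which understates the change of low genes, and were computed with Python 3.11.15 and pandas 2.3.3. The counting was tested on simulated data with planted changes, which checks the computation only and not the differences between the 2 libraries. The genes, lists and settings were chosen with earlier results of these data known. In related lists the 4 measured genes with the largest difference and the most abundant gene could be named, in marker lists the most abundant gene and those at 0. Some genes that meet this are not reported here. Promoters and transcripts came from RefSeq GRCm38.p6 and GENCODE M21.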

Additional observations from a re-analysis of the deposited data

How the results depend on the processing

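The count of enzyme genes at least 2-fold lower was 7 as deposited and stayed within 1.5 times of that under every pseudocount, scaling and filter tried, and no enzyme gene was 2-fold higher under any of them. It was 2 under a 3-fold rule, by the construction of the rule. The median difference of the 10 genes was -1.19 with a pseudocount of 0.1 and -1.13 with a pseudocount of 5, and -1.41 with the median ratio scaling, -1.39 with equal FPKM sums, -1.37 with the upper quartile, -1.36 with the trimmed mean and -1.69 with the Schwann lineage scaling. The genes lower and higher over the whole table numbered 380 and 624 as deposited. They numbered 221 and 283 with a pseudocount of 5, 577 and 355 with median ratio scaling and 936 and 206 with Schwann lineage scaling. They numbered 934 and 2211 under a 1.5-fold rule, 134 and 173 under a 3-fold rule and 207 and 303 with a filter of 20 FPKM, which was added after the data were seen. The higher genes numbered 364 with equal FPKM sums, 379 with the upper quartile and 387 with the trimmed mean. The cause was not tested. Among the 14 related and marker lists with 5 or more measured genes, the median changed sign in 5 with median ratio scaling or equal sums, in 4 with the upper quartile or the trimmed mean and in 7 with Schwann lineage scaling. No paired analysis was possible because each group has 1 library, and no library could be left out. Depth is unknown, and among the 617 genes above 0 and below 0.05 FPKM in both libraries the median ratio of Tsc1cKO to control was 0.942.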

Other observations

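For each enzyme gene the nearest measured gene on each side was taken, leaving out the other enzyme genes, such as the nearby Scd and Fads pairs, and genes that overlap. Of these 16 neighbours, 0 were at least 2-fold lower in Tsc1cKO nerve as deposited and 1 when centred, and 2 were at least 2-fold higher as deposited and 0 when centred. Their median difference was 0.30 (0.10 centred). Fen1, a replication nuclease gene that lies 2266 bases beyond Fads1 in the mm9 tables, had 17.2 FPKM in Tsc1cKO nerve and 6.85 FPKM in control nerve, whereas Fads1 was 1.95-fold lower. Cnp, the neighbour of Acly and a gene of myelinating cells, had the most negative difference of the 16, -0.80 (-1.04 centred). These neighbours were chosen by position, after the values of the enzyme genes were seen.

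Acaca shares sequence with a pseudogene. Of the windows of 50 bases in its longest GENCODE M21 transcript, 52.6% also occur in Gm5182, a processed pseudogene, which is no entry of the tables under that symbol. How the authors placed reads that match more than 1 site is not given in the sources used here, and its part in the value was not tested. For Fasn, Acly, Fads1, Elovl1 and Elovl5 no window was shared with another gene, and for Elovl6 4.39% were.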
